A study of Mus musculus with 4 samples.

Results

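The genes described here build and run the DNA replication machinery: the origin recognition complex, the loaders and the ring of the MCM helicase, and the polymerases, clamp, clamp loader and accessory factors of the moving fork. They were chosen by gene symbol from a list of 50, and all 50 were found among the 20197 genes measured, each with a mean of at least 10 normalized reads. RNA was measured in 4T1 cells, an established mouse mammary tumor line of wild-type genotype. The cells had been stained with 20 nM MitoSpy Red, a dye that gathers in mitochondria with a high mitochondrial membrane potential (MMP), and the 5% of cells at each end of the stain were collected. There were 2 libraries of high MMP cells and 2 of low MMP cells, numbered 1 and 2 in each group. The study counts its repeats of this comparison as independent experiments or tumors, without saying which numbered libraries were sorted together. The comparison asks how replication genes differed between cells at the 2 ends of the stain.

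Eukaryotic replication is prepared and fired in separate steps. In G1 phase the origin recognition complex, CDC6 and CDT1 load the MCM helicase onto origins in an inactive form, which is called licensing. In S phase the CDC7-DBF4 kinase, CDC45 and GINS turn the loaded ring into an active helicase, and polymerases, the PCNA clamp and its loader follow, while geminin and protein turnover block new loading until the next G1. Transcription of many of these genes is controlled by E2F factors and peaks around the entry into S phase.

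Values are normalized reads, scaled to 20000000 per library. A difference is the mean log2(value + 1) of the high MMP libraries minus that of the low, so that negative means lower in high MMP cells. The recovered depth was 22591970 to 26395015 reads per library, and the members had from 296 to 9432 reads per library. Markers of mammary epithelium summed to 49164 to 67952 in the high and 56685 to 64988 in the low MMP libraries, whereas those of fibroblasts summed to 340 to 404 and 582 to 629, those of leukocytes to 61 to 140 and 93 to 149, and those of endothelium to 3 to 6 and 2 to 6. The endothelial markers *Kdr* and *Tek* and the fibroblast marker *Lum* were not among the genes measured, the leukocyte marker *Ptprc* had at most 2 reads, and *Pdgfra* carried most of the fibroblast sum. In a bulk sample, fewer cells that express a gene and less RNA per cell cannot be told apart.

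Replication genes were mostly lower in high MMP cells. The difference was negative for 47 of the 50 genes and positive for *Orc2*, *Dbf4* and *Prim2*, and its median was -0.34, beside -0.04 over all genes. The values of both high MMP libraries lay below those of both low MMP libraries for 34 members, while 24.5% of all genes and 22.7% of the 9999 genes averaging 100 or more did so. The opposite held for 1 member, *Orc2*, beside 13.5% of all genes, and the groups overlapped for 15. An unadjusted p under 0.05 in limma was reached by 24 members that were lower in high MMP cells, against 6.01% of all genes and 4.57% of those averaging 100 or more. This count was much smaller when low MMP 1 or low MMP 2 was left out, as was the count over all genes. An unadjusted p under 0.05 was reached by 0 members that were higher, against 3.95% of all genes.

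None of these differences passed adjustment over all genes in the main limma fit, but some did in DESeq2. At an adjusted p under 0.05 limma called 0 of 50 members and 0% of the 20197 genes. On the recovered reads edgeR likewise called 0. It had 21 members at an unadjusted p under 0.05, beside 1423 of the 20197 genes in either direction. DESeq2 called 5 members, all lower (*Cdc6*, *Cdt1*, *Orc1*, *Timeless* and *Rpa2*), while 0.309% of the genes it tested were called lower. The G2/M genes that were examined beside them had the opposite direction. Of the 15 genes on that list, 13 were higher in both high MMP libraries than in either low MMP library. In addition 1 was lower in both and 1 overlapped, and the median difference was 0.88. DESeq2 called 10 of the 15, all higher, while it called 81 of the 11974 genes it tested higher. Those of smallest unadjusted p were *Nusap1* (1.22), *Ube2c* (1.30) and *Aurka* (0.98), which act in spindle assembly and mitotic exit. Summed over all 15 genes of the list, the values were 106116 and 113051 in the high and 68733 and 72265 in the low MMP libraries. The part of these 15 genes in the differences of the replication genes was not tested.

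**Figure D1:**
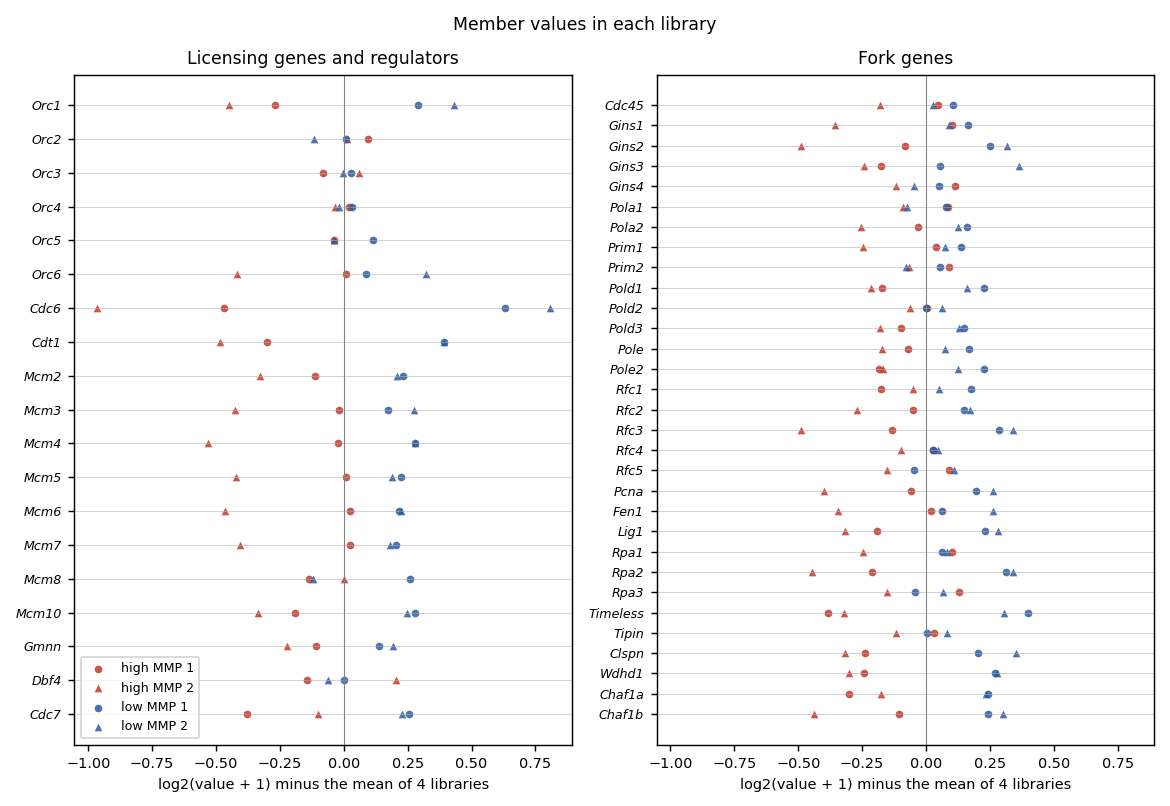
Value of each of the 50 members in each of the 4 libraries, as log2(value + 1) minus the mean of the 4 libraries (x axis), with licensing genes and regulators on the left and fork genes on the right. Red marks high MMP, blue low MMP, circles replicate 1 and triangles replicate 2. Red points lie left of both blue points for 34 members, and the triangle of high MMP 2 lies left of the circle of high MMP 1 for 41.

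The genes that bring the helicase to the origin showed the widest separation. *Cdc6* (chromosome 11, 98907801 to 98923940, GRCm38), the ATPase that joins the origin recognition complex to load MCM rings, had 1171 and 829.3 normalized reads in high MMP 1 and 2, against 2507 and 2832 in low MMP 1 and 2. Both low MMP values were far above both high MMP values. The high MMP mean was 37.5% of the low, a difference of -1.43 (SE 0.19, unadjusted p 0.00147, adjusted p 0.472 in limma, adjusted p 5.64e-10 in DESeq2). Ordered from the lowest difference, it ranked 3 of the 9999 genes averaging 100 or more.

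*Cdt1* (chromosome 8, 122568015 to 122573554), which delivers the MCM ring and is destroyed once S phase begins, had 2429 and 2142 normalized reads in the high and 3932 and 3927 in the low MMP libraries. The 2 low MMP libraries were nearly equal, and both high MMP libraries were far below them. The high MMP mean was 58.2% of the low, with a difference of -0.78 (SE 0.10, unadjusted p 0.000978, adjusted p 0.472 in limma, adjusted p 0.000304 in DESeq2).

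The origin recognition complex was split among its subunits. *Orc1* (chromosome 4, 108579423 to 108614833), the subunit whose level is known to oscillate through the cycle, had 715.3 and 631.8 in the high and 1055 and 1164 in the low MMP libraries. Its groups did not overlap, and the difference was -0.72 (SE 0.11, unadjusted p 0.00213, adjusted p 0.472 in limma, adjusted p 0.0133 in DESeq2). *Orc2* (chromosome 1, 58462771 to 58505109), a core subunit, had 2322 and 2196 in the high and 2187 and 2005 in the low MMP libraries. Its groups were separated in the other direction but by only a few reads, and the difference was 0.11 (SE 0.09, unadjusted p 0.281, adjusted p 0.788). *Orc3* (-0.02), *Orc4* (-0.01) and *Orc5* (-0.08), the other core subunits, overlapped between the groups. *Orc6*, which binds the core more loosely, differed by -0.41 (SE 0.18, unadjusted p 0.0843), with its groups apart.

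All 6 subunits of the MCM ring were lower in high MMP cells, by a similar amount. The differences were -0.56 for *Mcm4*, -0.45 for *Mcm3*, -0.44 for *Mcm2* and *Mcm6*, -0.41 for *Mcm5* and -0.38 for *Mcm7*, with both high MMP libraries below both low MMP libraries for each. *Mcm2* (unadjusted p 0.0138) and *Mcm4* (0.0413) had an unadjusted p under 0.05 in limma. The summed values of all 6 subunits were 36559 in high MMP 1, 27338 in high MMP 2, 42878 in low MMP 1 and 43085 in low MMP 2. The high MMP libraries thus differed from each other by more than high MMP 1 differed from either low MMP library, whereas the low MMP libraries were close to each other. Each of the 6 genes was lower in high MMP 2 than in high MMP 1, by 0.22 (*Mcm2*) to 0.51 (*Mcm4*) on the log2 scale. Against low MMP 1, high MMP 1 differed by -0.34 to -0.18 for these 6, and high MMP 2 differed from low MMP 2 by -0.81 to -0.54.

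The other Mcm genes on the list are not part of this ring. *Mcm10* (chromosome 2, 4989714 to 5012791), a scaffold needed to start unwinding, had 1955 and 1767 in the high and 2708 and 2648 in the low MMP libraries. Here the replicates of each group were close and the groups were well apart, with a difference of -0.53 (SE 0.09, unadjusted p 0.00331, adjusted p 0.472). *Mcm8*, which acts with MCM9 in recombination repair, differed by -0.14 (SE 0.16, unadjusted p 0.434), and its groups overlapped.

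**Figure D2:**
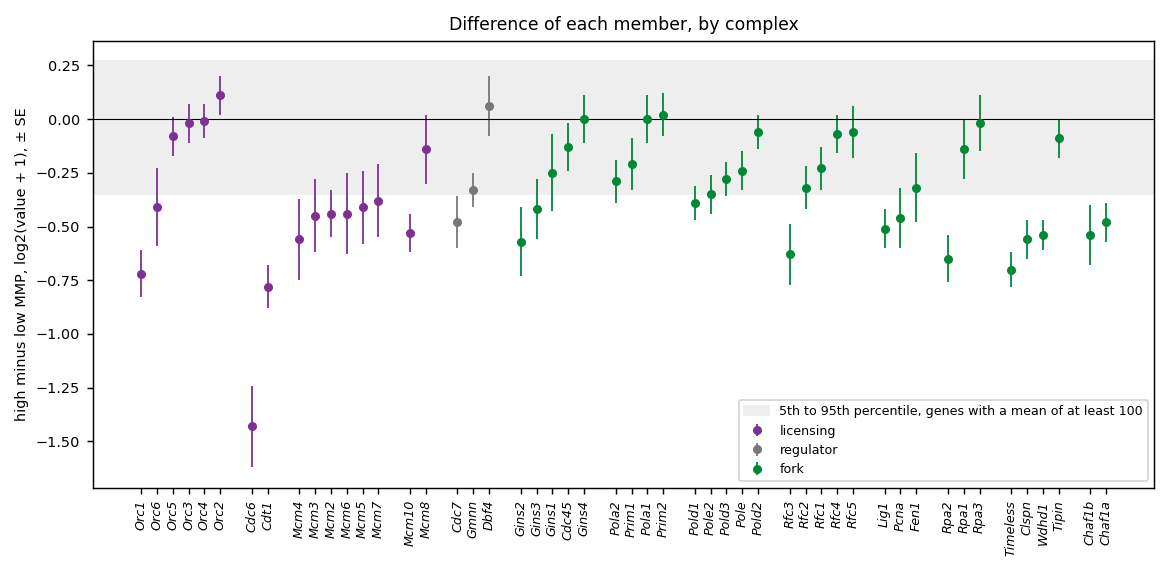
Difference of each member in log2(value + 1), high minus low, with its limma SE (y axis, n = 2 libraries per group), ordered within each complex, with licensing genes in purple, regulators in grey and fork genes in green. The grey band spans the 5th to 95th percentile of the 9999 genes averaging 100 or more, -0.35 to 0.27. *Cdc6* at -1.43 is the lowest point, and *Orc2* to *Orc5* lie between -0.08 and 0.11.

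Geminin and the firing kinase regulate the step between licensing and the fork. *Gmnn*, the inhibitor of CDT1, differed by -0.33 (SE 0.08, unadjusted p 0.0152), with its groups apart. The kinase subunit *Cdc7* differed by -0.48 (SE 0.12, unadjusted p 0.0145), also with its groups apart. Its activator *Dbf4* (chromosome 5, 8396973 to 8422716) had 3217 and 4090 in the high and 3555 and 3405 in the low MMP libraries. The 2 high MMP libraries lay on either side of the low, and the difference was 0.06 (SE 0.14, unadjusted p 0.692, adjusted p 0.961), turning to -0.11 without high MMP 2.

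Among the fork genes, the protection factors *Timeless*, *Tipin*, *Clspn* and *Wdhd1* had a median difference of -0.55. *Timeless* (chromosome 10, 128232065 to 128252941), which holds the helicase and polymerase together and takes part in checkpoint signalling, had 1340 and 1400 in the high and 2304 and 2157 in the low MMP libraries. The groups were far apart and the replicates close, so that this gene had the smallest unadjusted p of the 50 (difference -0.70, SE 0.08, unadjusted p 0.00077, adjusted p 0.472 in limma, adjusted p 0.00284 in DESeq2). *Wdhd1* (chromosome 14, 47240944 to 47276857), a hub that ties polymerase alpha to the helicase, had 1378 and 1323 in the high and 1964 and 1976 in the low MMP libraries. Its difference was -0.54 (SE 0.07, unadjusted p 0.00144, adjusted p 0.472). *Clspn* (chromosome 4, 126556935 to 126593903), the adaptor that lets ATR activate CHK1, had 1199 and 1135 in the high and 1628 and 1805 in the low MMP libraries, a difference of -0.56 (SE 0.09, unadjusted p 0.00314, adjusted p 0.472). For both genes all low MMP values were above all high MMP values. *Tipin*, the partner of *Timeless*, differed by -0.09 (SE 0.09, unadjusted p 0.396), and its groups overlapped.

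Among the genes that handle single strands and join them, the subunits again diverged. RPA coats single-stranded DNA as a trimer. *Rpa2* (chromosome 4, 132768332 to 132778752) had 970.6 and 825.1 in the high and 1396 and 1423 in the low MMP libraries, with the groups apart (difference -0.65, SE 0.11, unadjusted p 0.00318, adjusted p 0.472 in limma, adjusted p 0.0303 in DESeq2). *Rpa1* (-0.14, SE 0.14) and *Rpa3* (-0.02, SE 0.13) overlapped between the groups. *Lig1* (chromosome 7, 13277283 to 13311433), the ligase that seals Okazaki fragments, had 2614 and 2397 in the high and 3509 and 3633 in the low MMP libraries. Its groups were apart by a wide margin, and the difference was -0.51 (SE 0.09, unadjusted p 0.00346, adjusted p 0.472). *Pcna*, the sliding clamp, differed by -0.46 (SE 0.14, unadjusted p 0.0304), and the flap nuclease *Fen1* by -0.32 (SE 0.16, unadjusted p 0.109), both with the groups apart.

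The chromatin assembly factor CAF-1 places new histones behind the fork. Its large subunit *Chaf1a* (chromosome 17, 56040439 to 56072289) had 2778 and 3035 in the high and 4055 and 4032 in the low MMP libraries. The low MMP libraries were nearly equal and well above the others, with a difference of -0.48 (SE 0.09, unadjusted p 0.00445, adjusted p 0.472). *Chaf1b* differed by -0.54 (SE 0.14, unadjusted p 0.0148).

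The polymerases differed less. In polymerase alpha-primase, which lays the RNA-DNA primers, *Pola2* differed by -0.29 and *Prim1* by -0.21, with the groups apart, *Pola1* by less than 0.01 and *Prim2* by 0.02, with the groups overlapping. *Prim2* (chromosome 1, 33453810 to 33669795) had 747.1 and 669.5 in the high and 727.9 and 664.8 in the low MMP libraries, overlapping fully (SE 0.10, unadjusted p 0.829, adjusted p 0.993), and its difference was -0.06 without high MMP 1 and -0.04 without low MMP 2. None of the 4 had an unadjusted p under 0.05. Of the lagging- and leading-strand polymerases, the catalytic subunits *Pold1* (-0.39, unadjusted p 0.0061) and *Pole* (-0.24, unadjusted p 0.0464) and the accessory subunits *Pold3* (-0.28) and *Pole2* (-0.35) were lower, with their groups apart. *Pold2* differed by -0.06 and overlapped.

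In the clamp loader, *Rfc3* differed by -0.63 (SE 0.14, unadjusted p 0.0107), *Rfc2* by -0.32 (unadjusted p 0.0334), *Rfc1* by -0.23, *Rfc4* by -0.07 and *Rfc5* by -0.06. *Rfc5* alone of the 5 had overlapping groups, but those of *Rfc4* were barely apart, with 772.9 in high MMP 1 and 773.3 in low MMP 1. In the CDC45 and GINS part of the active helicase, *Gins2* differed by -0.57 (unadjusted p 0.0226) and *Gins3* by -0.42 (unadjusted p 0.0396), with the groups apart. *Gins1* (-0.25) and *Cdc45* (-0.13) overlapped, and *Gins4* differed by less than 0.01.

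Next, licensing genes were set against fork genes. Taking *Orc1* to *Orc6*, *Cdc6*, *Cdt1* and the Mcm genes as licensing (16 genes) and the rest without *Gmnn*, *Cdc7* and *Dbf4* as fork (31 genes), the median difference was -0.43 for licensing and -0.29 for fork. Of the licensing genes 11 had both high MMP libraries below both low, 1 the reverse and 4 overlapped. Of the fork genes these counts were 21, 0 and 10. Over all genes 24.5% had both high MMP libraries below both low and 13.5% the reverse. An unadjusted p under 0.05 in limma was reached by 6 of 16 licensing and 16 of 31 fork genes, all lower, beside 6.01% of all genes. The gap between the medians was -0.14, and it rested on high MMP 2, without which the medians were -0.20 and -0.21 and the gap was 0.01. The median of all 50 genes was -0.21 without high MMP 2 and -0.41 without high MMP 1. The spread within the licensing group was wider than the gap between the groups, since the 12 genes other than *Orc2* to *Orc5* had a median of -0.44 and those 4 had -0.02.

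The 2 high MMP libraries were not equally low. Of the 50 genes, 41 were lower in high MMP 2 than in high MMP 1, with a median of -0.18. Of the 9999 genes averaging 100 or more, 4671 were lower in high MMP 2, and the median was 0.02. The other 9 members were *Dbf4* (0.35 higher in high MMP 2), *Cdc7* (0.28), *Orc3* (0.14), *Chaf1a*, *Rfc1* and *Mcm8* (0.13 each), *Timeless* (0.06), *Pole2* (0.02) and *Orc5* (0.00). Low MMP 2 was below low MMP 1 for 26 of the 50 genes. Apart from the members, the keratins *Krt7*, *Krt8*, *Krt18* and *Krt19* were also lower in high MMP 2 than in high MMP 1, and the summed epithelial markers were 67952 in high MMP 1 and 49164 in high MMP 2. Their part in the gap between these libraries was not tested.

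Because both members of a complex come from the same cells of a library, partner genes were also compared as a log2 ratio within each library. These 10 pairs were picked after the values had been seen, so the ratios are a description. The ratio of *Timeless* to *Tipin* was -0.97 and -0.76 in the high and -0.16 and -0.33 in the low MMP libraries. That of *Rpa2* to *Rpa1* was -2.19 and -2.08 against -1.63 and -1.62, and that of *Cdc7* to *Dbf4* was -2.06 and -2.12 against -1.57 and -1.53. For *Cdc7* to *Dbf4* the ratio had an SD of 0.05 over the high MMP libraries, although each gene alone was 0.28 and 0.35 higher in high MMP 2.

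The ratio of *Cdt1* to its inhibitor *Gmnn* was 1.10 and 1.03 in the high and 1.54 and 1.49 in the low MMP libraries, and that of *Orc1* to *Orc2* was -1.70 and -1.80 against -1.05 and -0.78. *Rfc3* to *Rfc4* differed by -0.55, *Pola2* to *Pola1* by -0.28, *Prim1* to *Prim2* by -0.23, *Pole2* to *Pole* by -0.11 and *Chaf1b* to *Chaf1a* by -0.06. The last of these overlapped between the groups and the other 9 did not. The exact permutation test over 2 against 2 libraries, two-sided, cannot go below p = 0.333, so none of these could pass.

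**Figure D3:**
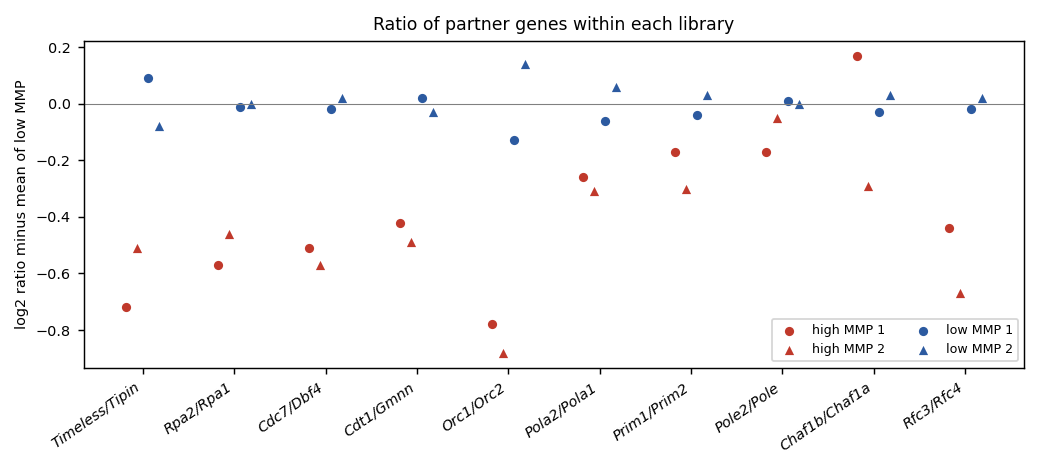
Log2 ratio of each pair of partner genes in each library minus the mean of the low MMP libraries (y axis), for 10 pairs (x axis). Red marks high MMP, blue low MMP, circles replicate 1 and triangles replicate 2. The ratio of *Orc1* to *Orc2* is lowest, with high MMP 0.83 below low on average, and *Chaf1b* to *Chaf1a* is the pair whose groups overlap.

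Levels between genes were compared as normalized reads per kb of exon, using the joined exons of all annotated transcripts as the length. In low MMP cells, *Mcm3* to *Mcm7* had 1532 to 2103 reads per kb, while *Mcm2* had 847. In high MMP cells these were 1188 to 1559 and 625. The subunits of the origin recognition complex ranged much more widely, from 99.6 (*Orc5*) to 783 (*Orc6*) in low and from 94.4 to 594 in high MMP cells. *Cdc6* had 511 reads per kb in low MMP cells, between *Orc1* (319) and *Orc2* (543). In high MMP cells it had 191, beside 194 for *Orc1* and 586 for *Orc2*. *Pcna* had the highest level of the 50, with 2695 in low and 1975 in high MMP cells.

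**Figure D4:**
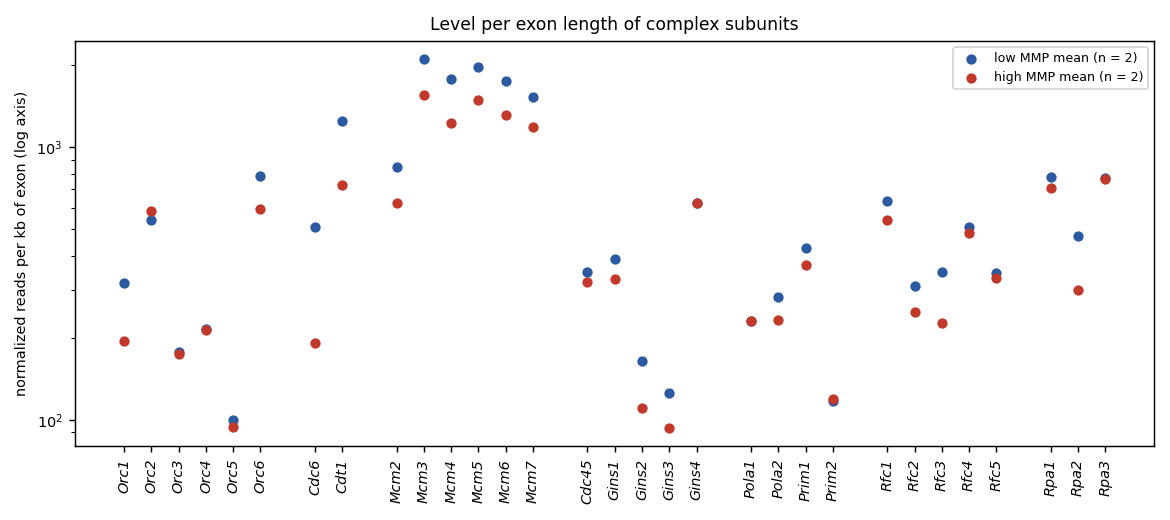
Mean normalized reads per kb of exon (y axis, log scale) for subunits of the origin recognition, MCM, CDC45 and GINS, primase, clamp loader and RPA complexes and for *Cdc6* and *Cdt1*, in low (blue) and high (red) MMP cells, n = 2 libraries each, with no error shown. *Mcm3* to *Mcm7* lie together above 1000, while the origin recognition subunits run from 94.4 to 783, and *Cdc6* shows the widest gap between the groups.

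Promoters of the members were then searched for the letters of an E2F site. RefSeq promoters on GRCm38.p6, covering 250 bases before to 50 after the RefSeq start, were given for 41 of the 50 members (50 promoters). They were searched on both strands for TTTCGCGC and TTTGGCGC. At least 1 match was found in 12 of 41 members, or 29.3%, and in 0.929% of the 27025 genes with a promoter. The 12 were *Orc1*, *Cdt1*, *Mcm3*, *Mcm5*, *Mcm6*, *Mcm7*, *Mcm8*, *Rfc3*, *Clspn*, *Lig1*, *Pole2* and *Pola1*, of which 7 are licensing and 5 fork genes. Their median difference was -0.44 (range -0.78 to 0.00), and that of the 29 members without a match was -0.29 (-1.43 to 0.11). Both high MMP libraries were below both low for 10 of the 12 and 19 of the 29, beside 24.5% of all genes. *Cdc6* and *Timeless* were among those without these letters in this window, as were *Orc2* to *Orc5*. For comparison, TTTGAA, the letters of the cell cycle homology region found in many G2/M promoters, stood in 17.1% of the 41 members and 20.2% of all genes.

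Windows of 30 bases around the match are shown to place these letters for the licensing members other than *Mcm8* and for the 3 fork members with a match that had the lowest unadjusted p, 5′ to 3′ on the strand of the gene, with the matched letters in capitals. In *Mcm5* and *Mcm6* a match to the second motif on the opposite strand overlaps the match shown. The windows are, in this order, chr4:108579416-108579445, chr8:122568035-122568064, chr1:20820263-20820292, chr8:75109345-75109374, chr1:128359797-128359826, chr5:138171849-138171878, chr4:126556990-126557019, chr7:13278841-13278870 and chr5:151651200-151651229, of which *Mcm3*, *Mcm6*, *Mcm7* and *Rfc3* are on the minus strand.
*Orc1*: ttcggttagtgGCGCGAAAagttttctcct
*Cdt1*: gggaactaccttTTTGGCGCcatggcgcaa
*Mcm3*: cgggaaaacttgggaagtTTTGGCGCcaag
*Mcm5*: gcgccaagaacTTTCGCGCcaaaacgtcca
*Mcm6*: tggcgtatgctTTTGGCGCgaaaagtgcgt
*Mcm7*: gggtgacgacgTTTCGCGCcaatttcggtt
*Clspn*: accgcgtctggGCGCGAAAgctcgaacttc
*Lig1*: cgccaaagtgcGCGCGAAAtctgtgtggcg
*Rfc3*: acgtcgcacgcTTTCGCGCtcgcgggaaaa
The matches began 27 bases before the RefSeq start in *Orc1*, 10 before it in *Rfc3* and 153 before it in *Mcm5*. In *Mcm6* the match began 110 before the RefSeq start, with a further separate match 47 before it. In *Mcm7*, *Clspn*, *Lig1*, *Cdt1* and *Mcm3* the matches lay 17 to 39 bases after the RefSeq start. The RefSeq start can differ from the gene positions given above, as it does in *Orc1* and *Lig1*. A match of letters is a description and not a measured site, and no match says only that these letters are not in this window.

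Other replication genes outside the 50 were examined on a list of 50, of which 49 were measured. The median difference was -0.09. Both high MMP libraries were below both low for 19 of the 49 and above them for 2, beside 24.5% and 13.5% of all genes. An unadjusted p under 0.05 was reached by 10 that were lower and 1 that was higher, beside 6.01% and 3.95% of all genes. After adjustment over all genes limma called 0 of them and DESeq2 called 5, all lower. The lower genes of smallest p were *Tonsl*, which protects newly made chromatin (-0.70, unadjusted p 0.00115), *Dna2*, a nuclease that trims long flaps (-0.71, unadjusted p 0.00116), and *Atad5*, which unloads the PCNA clamp (-0.88, unadjusted p 0.00131). The higher gene was *Polh*, a polymerase that copies past ultraviolet damage, at 0.41 (unadjusted p 0.00599).

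How reads of overlapping genes were assigned is not stated. Of the 50 members, 11 overlap another measured gene with a mean of at least 100 normalized reads, among them *Orc6* with *Vps35*, *Rfc4* with *Eif4a2*, *Mcm7* with *Cops6* and *Orc2* with *Nif3l1*, all on the opposite strand. The library kit keeps the strand, but whether the counting used it is not given in the sources used here.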

How the data were processed

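RNA of 100000 sorted cells per sample was used, and 200 ng entered a stranded mRNA library preparation. The authors aligned reads to the mouse transcriptome (GRCm38) with STAR. The submitters' processing notes also name HTSeq, and versions are not given in the sources used here. The deposited values are a normalized signal per gene: gene counts divided by library size, each library summing to 20000000, for genes detected in at least 2 of 4 samples. Every value (100.0% within 0.01 reads) was a whole multiple of 1 step, which gave back whole reads. The table held 0 columns of no sample. Names and positions are from GENCODE M21 (19993 of 20197 identifiers matched).

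log2(value + 1) was tested with limma 3.58.1 (trend) in R 4.3.3, high against low MMP, without a block, with Benjamini-Hochberg adjustment over all genes. A difference on this scale understates that of genes with low values. edgeR 4.0.16 (TMM) and DESeq2 1.42.0 on the recovered reads were alternatives, calling 0 and 118 genes. The chi-square between replicates was 43.2 per gene for high and 9.08 for low MMP, above sampling noise, so each library was counted as its own sample. Scripts were tested on simulated data. Full statistics are given for the 10 members of smallest unadjusted p and the 3 of largest difference in each direction, and others by complex. Members and lists were chosen with earlier results of these data known.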

Additional observations from a re-analysis of the deposited data

How the results depend on the processing

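With 2 libraries per group, limma called 0 members in the main analysis and under each of its scaling, pseudocount, filter and variance alternatives and without each library. DESeq2 called 118 of all genes and 5 members. Whether same-numbered libraries were sorted together is not stated. Their deviations had a correlation of -0.421 across 12902 genes, but 2 libraries per group cannot settle the pairing. Fits with a block are therefore given here only. With the replicate block limma called 0 genes. It had 17 members at an unadjusted p under 0.05, all lower, beside 1055 of the 20197 genes in either direction. In the same design edgeR called 106 genes, of which 43 were lower (0.213%). Among these were 3 members (*Cdc6*, *Cdt1* and *Orc1*) and 3 of the 49 other replication genes. With crossed numbers, a pairing chosen after seeing the data, edgeR called 733 genes (382 lower, 1.89%) and 22 members, all lower, and limma 0. The cause of these differences between models was not tested.

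Leaving out each library in turn, with a lone sample assumed to vary like the other group, gave 8 to 31 lower members at an unadjusted p under 0.05 (10 without low MMP 1 and 8 without low MMP 2, the cause was not tested) and 0 to 1 higher member, *Dbf4*, chosen after its values were seen. The count over all genes also changed between these fits and was much smaller without either low MMP library than without either high MMP library. The counts of members therefore cannot be compared between these fits. The median difference ranged from -0.41 to -0.21 for all members, from -0.61 to -0.20 for licensing and from -0.40 to -0.21 for fork genes, and the gap between licensing and fork medians from -0.21 to 0.01. The difference of *Dbf4* ranged from -0.11 without high MMP 2 to 0.23 without high MMP 1, and that of *Prim2* from -0.06 without high MMP 1 to 0.10 without high MMP 2, with -0.04 without low MMP 2. The number of members with both high MMP libraries below both low was 31 after median-of-ratios rescaling, 32 after quantile normalization and 34 in the main analysis. For *Cdc6* the difference lay between -1.68 and -1.19 over 17 alternatives.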

Other observations

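Some genes of the wider replication list act on licensing factors or on the methylation of new DNA, and they did not share one difference. All of those below were chosen after their values were seen. *Dtl*, the ubiquitin ligase adaptor that targets CDT1, had 2091 and 1758 normalized reads in the high and 3215 and 3367 in the low MMP libraries, a difference of -0.78 (SE 0.11, unadjusted p 0.00202, adjusted p 0.472 in limma). *Cul4a* (-0.01) and *Ddb1* (0.03), which form the same ligase, and *Skp2* (-0.12), an adaptor of another ligase, overlapped between the groups. *Uhrf1*, which brings the maintenance methyltransferase to new DNA, had 5813 and 4485 against 8391 and 8863, a difference of -0.76 (SE 0.16, unadjusted p 0.00722, adjusted p 0.472). That methyltransferase, *Dnmt1*, differed by -0.09 (SE 0.10, unadjusted p 0.419).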
